A study of Arabidopsis thaliana with 6 samples.

Results

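SWEET2 (AT3G14770, probe set 256548_at), SWEET10 (AT5G50790, 248496_at), SWEET17 (AT4G15920, 245524_at) and SAG29 (AT5G13170, 245982_at, also known as SWEET15) are 4 members of the SWEET family of sugar transporters in Arabidopsis thaliana. They were chosen by gene symbol among probe sets annotated to a single gene, with their differences between the genotypes already known, and each has 1 probe set among the 22746 tested. The measurements came from whole light-grown seedlings of the Columbia ecotype, 10 days old, raised under continuous light on agar medium with 2% sucrose. Wild type seedlings and transgenic seedlings that overexpress a rice cDNA, OsTOP6A1, were each represented by 3 Affymetrix arrays. The rice cDNA encodes the A1 subunit of topoisomerase 6. The labels call the samples biological replicates, name neither the promoter of the transgene nor the number of independent lines, so differences between lines and an effect of the transgene cannot be told apart.

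SWEET proteins are membrane transporters that let sugars move down their concentration gradient in either direction, without proton coupling. Members of clades I and II mostly carry hexoses, those of clade III carry sucrose across the plasma membrane, and those of clade IV sit in the vacuolar membrane. In leaves SWEET11 and SWEET12 release sucrose toward the phloem, where proton-coupled carriers take it up, and other members serve seeds, pollen, nectaries and roots.

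In transgenic seedlings the transcripts of SWEET17, SWEET2 and SAG29 were higher, and that of SWEET10 was lower. Mean intensity was 1.70-fold higher for SWEET17, 1.63-fold higher for SWEET2 and 2.99-fold higher for SAG29, and for SWEET10 it was 3.83-fold higher in wild type than in transgenic seedlings. Over all tested probe sets, 8.18% were called higher and 8.31% lower at an adjusted p of 0.05 in limma, and in 34.9% the arrays of the genotypes did not overlap. Since this contrast was used to choose the 4 genes, their values are given as a description and nothing is read from their number. In whole seedlings, fewer cells that express a gene and less of its RNA per cell cannot be told apart.

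SWEET17 is a fructose transporter of the vacuolar membrane, active in roots and leaf veins. Its intensity was 255.6, 232 and 243.8 on the wild type arrays and 400.8, 416.4 and 428.7 on the transgenic arrays. The genotypes were far apart relative to the scatter within each, with means of 243.8 ± 11.8 and 415.3 ± 14.0 (SD, n = 3 each). On the log2(intensity + 16) scale the difference was 0.73 (SE 0.07, 95% interval 0.58 to 0.89).

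SWEET2 is a clade I member that also sits in the vacuolar membrane and is known for retaining sugar in root cells. Its intensity was 76.3, 82.7 and 85.5 on the wild type arrays. On the transgenic arrays it was 122.9, 136.5 and 138.7, each above every wild type value. The means were 81.5 ± 4.72 and 132.7 ± 8.56 (SD, n = 3 each), a log2 difference of 0.61 (SE 0.07, 95% interval 0.44 to 0.78).

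SAG29 encodes a clade III sucrose transporter named for its rise in senescing leaves, and it also responds to osmotic stress and serves seed filling. It read 21.1, 25.6 and 23.4 in wild type and 89.1, 60.2 and 60.5 in transgenic seedlings. All transgenic arrays lay above all wild type arrays, but transgenic replicate 1 stood well above the other two. The means were 23.4 ± 2.25 and 69.9 ± 16.6 (SD, n = 3 each), and the log2 difference was 1.11 (SE 0.13, 95% interval 0.81 to 1.42). Without transgenic replicate 1 the log2 difference was 0.96 (SE 0.08).

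SWEET10, a clade III sucrose transporter known from the shoot apex at the floral transition, went the other way. It read 20.1, 27.8 and 31 in wild type and 7.5, 5 and 8.1 in transgenic seedlings. The means were 26.3 ± 5.60 and 6.87 ± 1.64 (SD, n = 3 each), and the log2 difference was -0.88 (SE 0.11, 95% interval -1.14 to -0.62). The transgenic values fell within the dim range of the array, since 34.9% to 36.0% of the probe sets on each array read 16 or below. No detection calls were used here, so whether SWEET10 RNA was measured at all in transgenic seedlings was not tested, and its fold change carries that limit.

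**Figure D1:**
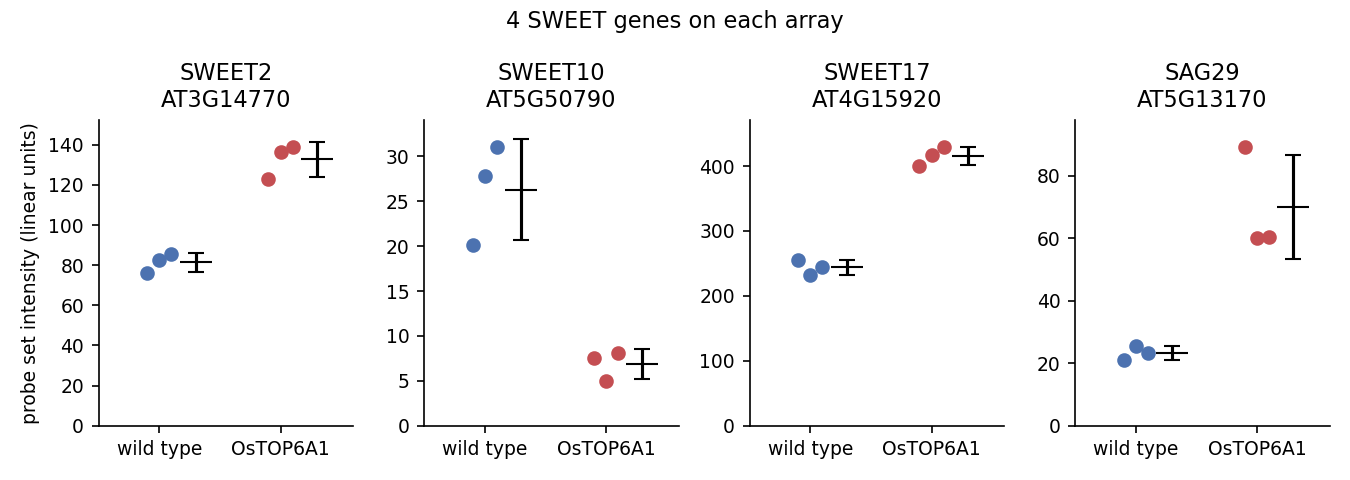
Probe set intensity (linear units, each vertical axis from 0) of SWEET2, SWEET10, SWEET17 and SAG29 on the 3 wild type (blue) and 3 transgenic (red, marked OsTOP6A1) arrays, with the mean and SD beside the points. SWEET17 is brightest, at 232 to 428.7, transgenic replicate 1 stands apart for SAG29 at 89.1, and SWEET10 is at 5 to 8.1 in transgenic seedlings.

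The 4 genes differed widely in brightness, from percentile 20.6 to 93.0 over the 6 arrays. Brightness also depends on the probes of each gene, so the order below is one of signals and not of transcript numbers. Among all tested probe sets the SWEET17 signal ranked between percentiles 87.0 and 93.0 over the 6 arrays, and the SWEET2 signal between 64.8 and 78.8. SAG29 moved from percentiles 39.1 to 43.0 in wild type to 60.0 to 69.0 in transgenic seedlings. SWEET10 moved from percentiles 38.4 to 46.2 down to 20.6 to 27.0.

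In wild type the order of the means was SWEET17, SWEET2, SWEET10 and SAG29, and the last 2 overlapped between arrays. In transgenic seedlings it was SWEET17, SWEET2, SAG29 and SWEET10, with no overlap between neighbours in that order. The ratio of SAG29 to SWEET10 intensity within an array was 1.05, 0.921 and 0.755 in wild type and 11.9, 12.0 and 7.47 in transgenic seedlings. The changes of these 2 clade III genes lay 1.99 apart on the log2(intensity + 16) scale, and the transgenic ratios rest on a SWEET10 signal in the dim range. By contrast, the ratio of SWEET17 to SWEET2 was 3.35, 2.81 and 2.85 in wild type and 3.26, 3.05 and 3.09 in transgenic seedlings, so this ratio overlapped between the genotypes. The changes of these vacuolar transporters differed by 0.12 on the log2 scale, and their 95% intervals overlapped.

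**Figure D2:**
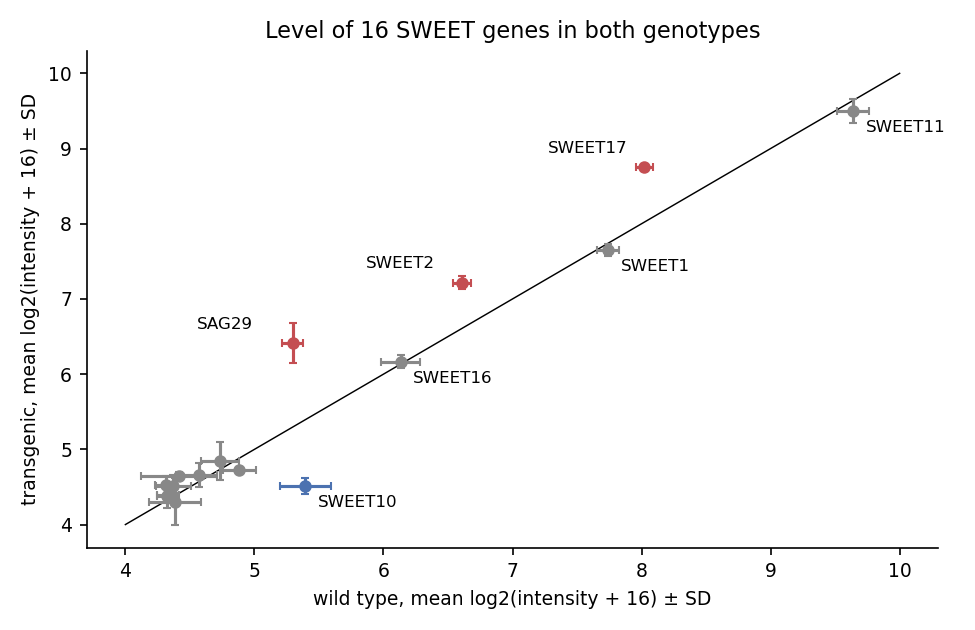
Mean log2(intensity + 16) in transgenic seedlings (vertical) against wild type (horizontal) for the 16 SWEET genes with a probe set, with bars for the SD over 3 arrays and a line of equal level. SWEET17, SWEET2 and SAG29 (red) lie above the line, SWEET10 (blue) below it, and the other 12 (grey) near it.

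The order of the changes by size depended on the pseudocount, because SWEET10, and SAG29 in wild type, had low intensities. With 16 added to each intensity the log2 differences were 1.11 for SAG29, -0.88 for SWEET10, 0.73 for SWEET17 and 0.61 for SWEET2. With 1 added, SWEET10 had the largest, at -1.80, ahead of SAG29 at 1.52, SWEET17 at 0.77 and SWEET2 at 0.70. With 64 added, SWEET17 came first at 0.64, then SAG29 at 0.61, SWEET2 at 0.435 and SWEET10 at -0.35. The directions and the calls were the same at all 3 values. The limma adjusted p values that went into the choice of the genes were 0.000483 for SWEET17, 0.00154 for SAG29, 0.00181 for SWEET2 and 0.00211 for SWEET10.

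**Figure D3:**
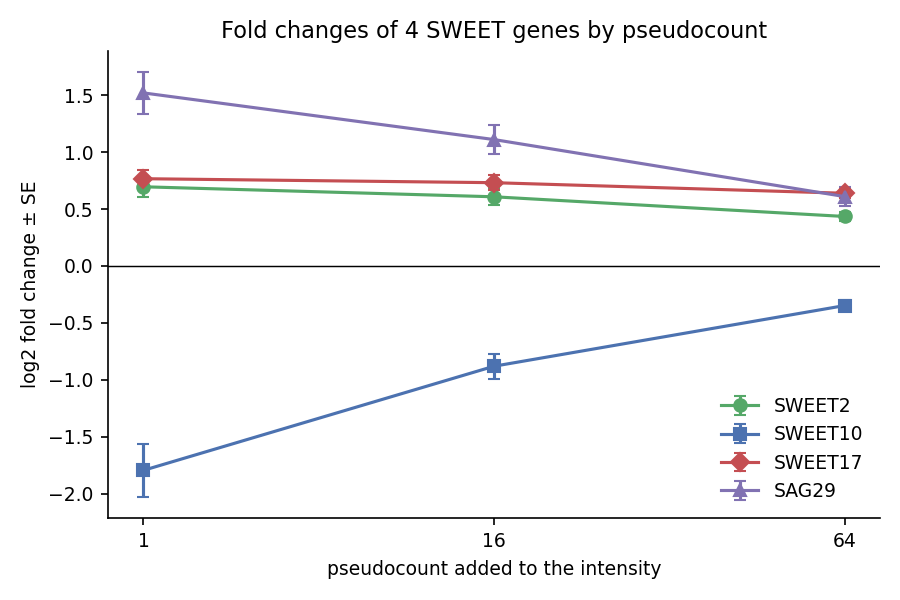
Log2 fold change (transgenic minus wild type, bars show the SE) of the 4 genes with a pseudocount of 1, 16 or 64 (evenly spaced positions). SWEET10 moves from -1.80 to -0.35 and SAG29 from 1.52 to 0.61, while SWEET17 stays between 0.64 and 0.77.

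The SWEET family has 17 genes, and 16 of them had a single-gene probe set. SWEET12 was not analysed here. Of the 12 SWEET genes besides the 4 described above, 0 were called in limma, beside 16.5% of all tested probe sets, and 1 of them, SWEET7, had an unadjusted p under 0.05. Their log2 differences lay between -0.16 and 0.23 with a median of 0.06, where the median over all probe sets was -0.02. Because the members were taken out for their change, the contrast between the 4 and the 12 is set by the choice and was not tested.

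Only 3 of those 12 genes had an intensity of 16 or more on every array. SWEET11, the leaf sucrose exporter that feeds the phloem, was the brightest SWEET signal. It read 810.7, 829 and 707.6 in wild type and 620.9, 762.9 and 746.9 in transgenic seedlings, and the genotypes overlapped (log2 difference -0.14, SE 0.10, limma adjusted p = 0.418). SWEET1, a glucose carrier of the plasma membrane, read 184.5, 202 and 208 in wild type and 197.9, 183.8 and 175.7 in transgenic seedlings (log2 difference -0.09, SE 0.08, limma adjusted p = 0.508). For both genes the wild type and transgenic arrays were interleaved.

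SWEET16, the clade IV relative of SWEET17 in the vacuolar membrane, read 62.9, 50.5 and 49.7 in wild type and 57.2, 59.2 and 51.1 in transgenic seedlings. Its log2 difference was 0.03 with a 95% interval of -0.18 to 0.25 (limma adjusted p = 0.86), an interval that lies wholly below that of SWEET17. The ratio of SWEET17 to SWEET16 within an array was 4.06, 4.59 and 4.91 in wild type and 7.01, 7.03 and 8.39 in transgenic seedlings. Since SWEET17 was chosen for its change, this contrast within clade IV is a description and was not tested.

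The other 9 genes had mean intensities under 16, and 7 of the 12 stayed under 16 on every array. Their intensities ran from 0.7 to 19.2, which is also where SWEET10 lay in transgenic seedlings. SWEET13, which neighbours SWEET10 in the genome and carries sucrose as well, had means of 10.7 ± 2.66 and 13.1 ± 5.34 (SD, n = 3 each). SWEET14, its close relative in anthers, had means of 4.77 ± 1.93 and 6.83 ± 2.41, and SWEET9, the nectary transporter, of 4.13 ± 1.15 and 5.03 ± 0.67 (SD, n = 3 each). Neither of these nor SWEET13 was called.

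All 5 clade II genes were dim. SWEET7 had the lowest adjusted p among the 12, with 3.8, 2.8 and 5 in wild type and 8.3, 8 and 4.7 in transgenic seedlings. Its arrays overlapped between the genotypes and it was not called (log2 difference 0.21, limma adjusted p = 0.149). SWEET4, a glucose carrier of veins, read 16.7, 11.5 and 12.6 against 10.1, 9.8 and 11.3. It was the only gene among the 12 whose arrays did not overlap, beside 34.9% of all tested probe sets (log2 difference -0.16, limma adjusted p = 0.235). The pollen genes AtVEX1 (SWEET5) and SWEET8 had log2 differences of -0.08 and 0.06, SWEET6 of 0.23 and the clade I gene SWEET3 of 0.09, none of them called.

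**Figure D4:**
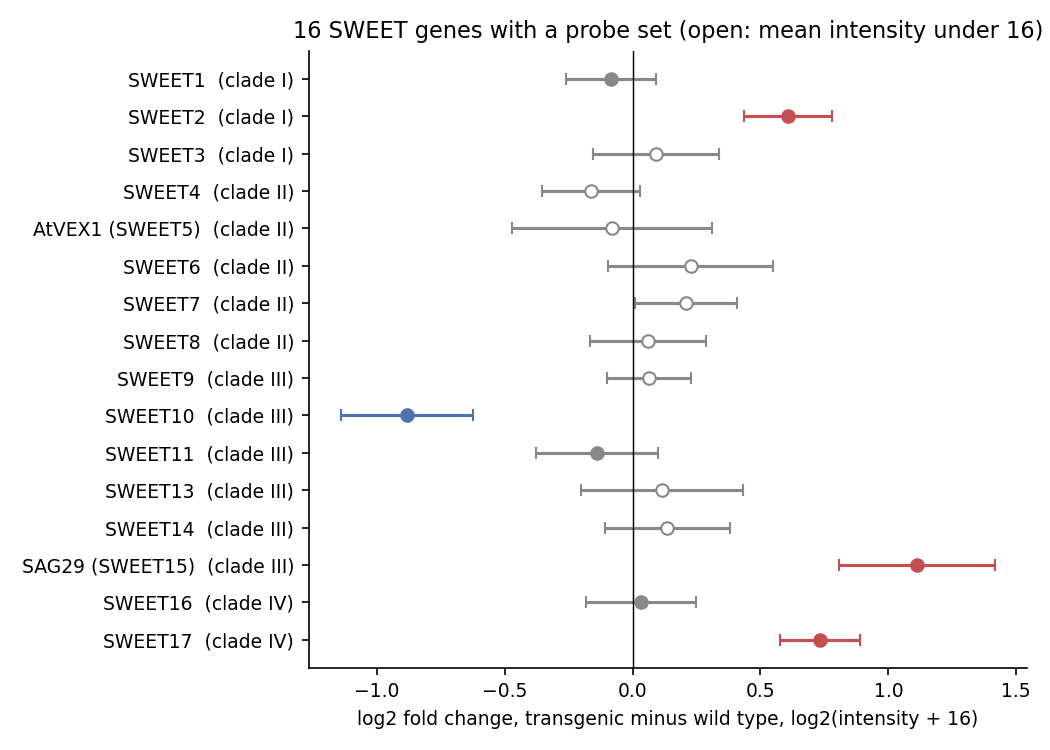
Log2 fold change (transgenic minus wild type, log2(intensity + 16) scale) with its 95% interval for the 16 SWEET genes with a probe set, by clade. Open points mark mean intensities under 16. SWEET2, SWEET17 and SAG29 (red) lie above 0 and SWEET10 (blue) below it, and the intervals of the rest except SWEET7 include 0.

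The genes on either side of each transporter gene were examined next, up to 2 protein-coding genes away in the reference order. SWEET17 lies directly beside DI21 (AT4G15910), a gene named for its induction by drought, which read 54.4, 46.6 and 55.5 in wild type and 228.6, 231.6 and 257.3 in transgenic seedlings. DI21 rose by 1.91 on the log2 scale (SE 0.08, limma adjusted p = 1.26e-05), 1.17 more than SWEET17. On the other side of SWEET17, AT4G15930 had a log2 difference of -0.02 (limma adjusted p = 0.896) and AT4G15940 of -0.10 (limma adjusted p = 0.304). The rise was seen for SWEET17 and DI21 and for neither gene beyond SWEET17. Since SWEET17 was chosen for its change, this contrast is a description and was not tested. On the side of DI21 the next gene, PRL1, had no single-gene probe set in the annotation used.

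SWEET2 differed in direction from its measured neighbours. Since SWEET2 was chosen for its change, this contrast is a description and was not tested. AT3G14760 and AT3G14780, the genes directly on either side, fell in log2 intensity by 0.28 (SE 0.07, limma adjusted p = 0.028) and by 0.30 (SE 0.08, limma adjusted p = 0.0368), the second from means of 16.3 to 10.3. Their calls ended in 6 of 13 and in 8 of 12 alternative settings, with adjusted p of up to 0.0905 and 0.119. AT3G14750, the next gene, was not called (log2 difference -0.18, limma adjusted p = 0.411).

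Beside SWEET10, AT5G50780 had a log2 difference of -0.24 (SE 0.08, limma adjusted p = 0.0804) and was not called. SWEET13 on the other side had 0.12 (SE 0.14, limma adjusted p = 0.634). The ratio of SWEET13 to SWEET10 within an array was 0.657, 0.392 and 0.255 in wild type and 2.56, 2.16 and 1.15 in transgenic seedlings. Both signals were in the dim range on most of the transgenic arrays, so no order of the adjacent genes is read from these ratios. The neighbours of SAG29 were not analysed here.

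**Figure D5:**
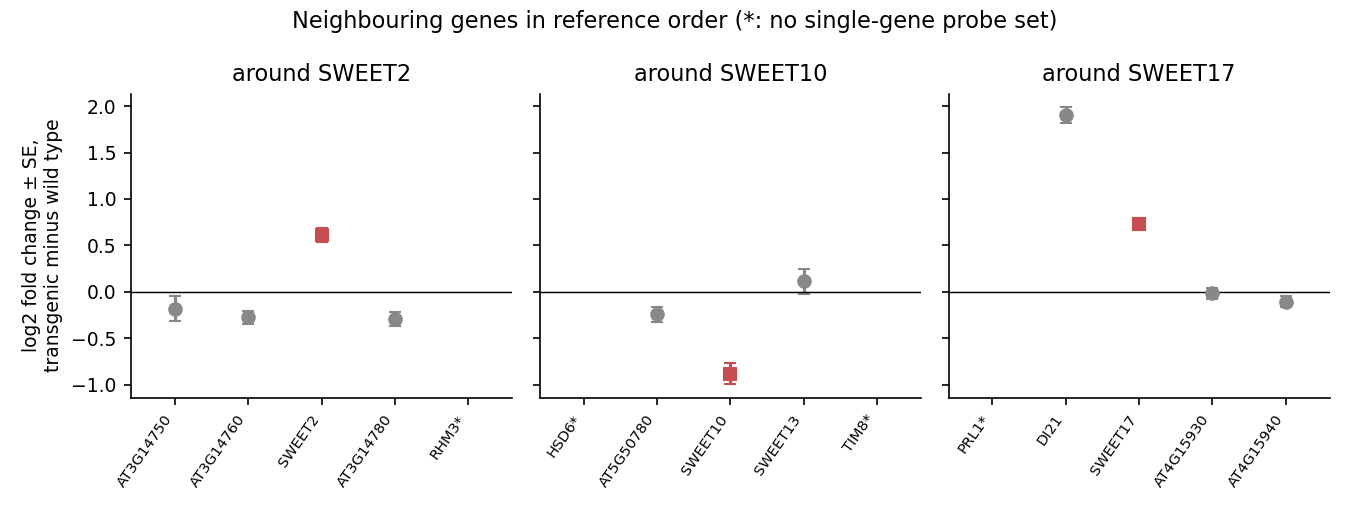
Log2 fold change (transgenic minus wild type, bars show the SE) of SWEET2, SWEET10 and SWEET17 (red squares) and of the protein-coding genes up to 2 positions away (grey circles), in reference order. DI21 at 1.91 rose beside SWEET17 at 0.73, whereas the genes beside SWEET2 lie below 0.

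Genes that move, make or cleave sugars elsewhere in the cell were read from 8 lists without the SWEET family. Of their 90 genes, 16 had a single-gene probe set, and 3 of these rose, 2 fell and 11 were not called, with a median log2 difference of -0.04. The platform annotation used did not list 8730 of the 22746 tested probe sets. A listed gene without a match is therefore not shown to be absent from the array. Over all named genes 15.3% were called. ATSPS4F (AT4G10120), a sucrose phosphate synthase of sucrose synthesis, read 89.5, 121.5 and 131.7 in wild type and 176.6, 187.6 and 221.7 in transgenic seedlings, with no overlap (log2 difference 0.71, SE 0.14, limma adjusted p = 0.0138). Its call ended in 2 of 13 alternative settings, without transgenic replicate 3 (limma adjusted p = 0.0538) and with a pseudocount of 1 (limma adjusted p = 0.0546).

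The 2 invertase genes, whose enzymes split sucrose or related sugars, moved in opposite directions. AT1G62660, a vacuolar invertase gene, read 296.8, 272.9 and 274.7 against 377.7, 333.4 and 343.6, a log2 rise of 0.30 (SE 0.07, limma adjusted p = 0.0305). cwINV6 (AT5G11920), named as a cell wall invertase and known as a fructan exohydrolase, read 30.4, 28.7 and 28.9 against 17.3, 17.6 and 17.5, a fall with a log2 difference of -0.44 (SE 0.06, limma adjusted p = 0.00303). APL3 (AT4G39210), a sugar-induced subunit of the starch enzyme ADP-glucose pyrophosphorylase, rose by 0.41 (SE 0.10, limma adjusted p = 0.0299). The calls of AT1G62660 and APL3 ended in 5 of the 6 fits that each leave out 1 array, where the highest adjusted p was 0.0945 and 0.0948, and with a pseudocount of 1 (limma adjusted p of 0.0878 and 0.0791), whereas cwINV6 kept its call in all 13 alternative settings.

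Among other transporters, 1 of 6 plasma membrane monosaccharide and polyol carriers was called, AT2G18480 (PLT3), beside 15.3% of all named genes. It read 11.3, 10.6 and 10.5 in wild type and 0.8, 1.4 and 1.4 in transgenic seedlings, all in the dim range (log2 difference -0.64, SE 0.06, limma adjusted p = 0.000539). Of 18 listed vacuolar and plastid carriers 6 had a probe set, and no plastid carrier was among these. None of the 6 (TMT1, TMT2, TMT3, AT5G17010, SFP1 and SFP2) was called, while 2 had an unadjusted p under 0.05. With 6 genes each, neither count is read as a result about the carriers. TMT1, which loads sugars into the vacuole, read 184.3, 215.1 and 188.5 against 136.4, 169.4 and 152.4 (log2 difference -0.33, SE 0.10, limma adjusted p = 0.0543). SFP1 had a log2 difference of 0.18 (limma adjusted p = 0.15). TMT1 was lower in every transgenic array than in any wild type array, and 34.9% of all tested probe sets also showed no overlap. TMT1 did not pass the threshold, though it passed in 4 of 13 alternative settings. Its direction was opposite to that of SWEET17 and SWEET2 of the same membrane. Since these 2 were chosen for their change, this contrast is a description and was not tested.

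Since SAG29 is known from senescence and osmotic stress, lists for these were read as well. Of 13 senescence genes 3 had a probe set and 0 were called, beside 15.3% of all named genes. None of the 3 had an unadjusted p under 0.05. WRKY6 and WRKY53, transcription factor genes of senescence, had log2 differences of 0.24 (limma adjusted p = 0.286) and 0.08 (limma adjusted p = 0.78). The remaining gene, SAG101, went the other way, with a log2 difference of -0.275 (limma adjusted p = 0.217). Of 11 genes for abscisic acid and osmotic stress 2 had a probe set, COR15A and COR47, with log2 differences of 0.37 (limma adjusted p = 0.257) and -0.40 (limma adjusted p = 0.0775), and 1 of them, COR47, had an unadjusted p under 0.05. COR47 passed in 2 of 13 alternative settings, toward lower values. Neither list held enough measured genes to describe its pathway.

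Of the tissue markers with a probe set, 0 were called in limma, beside 16.5% of all tested probe sets. The markers were too few for this count to describe tissue content. The summed intensity of 4 root markers was 3790 to 4329 in wild type and 3845 to 4375 in transgenic seedlings. Most of this sum came from PYK10, at 3019, 3530.5 and 3106.1 in wild type and 3524.7, 3029.5 and 3544.8 in transgenic seedlings. Of the 4 root markers 0 were called, nor did any have an unadjusted p under 0.05. Of these 4, NAI2 read 708.2, 741.1 and 729.6 in wild type and 745.6, 748.3 and 768.7 in transgenic seedlings, without overlap (log2 difference 0.05, limma adjusted p = 0.617), and the part of root content in the SWEET differences was not tested. The sum of 3 leaf mesophyll markers was 9475 to 11247 and 10474 to 11458, with 0 of 3 called and none under an unadjusted p of 0.05. Phloem was represented by SWEET11 alone and guard cells by FMA, with a log2 difference of -0.07 (limma adjusted p = 0.764), and seed storage markers were not analysed here. The RNA control probe sets gave a 3′ to 5′ intensity ratio of 1.36 to 1.44 in wild type and 1.31 to 1.46 in transgenic seedlings for GAPDH, and of 17.7 to 20.3 and 16.4 to 22.2 for actin. The ratio for ubiquitin was 3.17 to 4.49 in wild type and 2.44 to 2.99 in transgenic seedlings. The ubiquitin ratio separated the genotypes as the 4 SWEET genes do, and its part in their differences was not tested.

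For each of the 4 genes the 3 named genes with the most similar profile over the 6 arrays were found by Pearson correlation of log2 values, among 7898 named genes with a mean intensity of 16 or more. All 6 arrays share the genotype difference, so any gene with a clean difference in the same direction scores high. The genes below were picked by this correlation, so sharing the order of arrays within a genotype is set largely by the choice. Correlations above 0.95 were found for 386 genes with SWEET17, 349 with SWEET2, 298 with SWEET10 and 275 with SAG29. The closest to SWEET17 were AT3G13040 (r = 0.9994), ATB2 (AT1G60710, r = 0.9984) and AT5G03345 (r = 0.9976). ATB2 read 214.8, 197.1 and 206.2 in wild type and 447.9, 453 and 473 in transgenic seedlings, matching the order of the SWEET17 arrays within each genotype.

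The closest to SWEET2 were AT2G36145 (r = 0.9970), AT4G15660 (r = 0.9968) and AT5G25280 (r = 0.9963). The closest to SAG29 were AT1G23880 (r = 0.9987), AT1G29660 (r = 0.9973) and AT4G16510 (r = 0.9959). Having been picked by this correlation, they shared its highest value on transgenic replicate 1. AT1G29660 read 987.7 there beside 863.3 and 893.7 on the other transgenic arrays. The wild type means of AT1G23880 (9.9) and AT4G16510 (15.3) were under 16, so both passed the intensity minimum through their transgenic arrays. The closest to SWEET10 were AT5G22460 (r = 0.9959), TET3 (AT3G45600, r = 0.9957), a tetraspanin gene, and AT2G42780 (r = 0.9956). TET3 read 268.4, 300.1 and 323.2 in wild type and 177.7, 170.8 and 194 in transgenic seedlings, with wild type replicate 1 and transgenic replicate 2 lowest in their genotypes, as for SWEET10. For SWEET10 the transgenic part of this order rests on values of 5 to 8.1 in the dim range.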

How the data were processed

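The deposited values are Affymetrix probe set intensities on a linear scale, and per the labels' protocols biotin-labelled cRNA from TRIzol-extracted RNA was hybridised. What software and scaling the authors used is not given in the sources used here. The mean intensity after trimming 2% at each end was 100.0 on every array, so no further scaling was applied. Of 22810 probe sets, 64 controls were left out. Platform annotation and the RefSeq table of assembly TAIR10.1 named 13436 probe sets (13286 genes, the brightest probe set for each). Log2(intensity + 16) values of all 6 arrays were fitted with lmFit and eBayes (limma 3.58.1, R 4.3.3), transgenic minus wild type, with Benjamini-Hochberg adjustment over 22746 probe sets and a threshold of 0.05. The fit was tested on simulated data. The number of arrays limits the precision. Tables were made in Python 3.11.15.

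The SWEET genes, 11 gene lists and 5 marker lists were chosen with earlier results of these data known. Named genes were the 4 SWEET genes, the rest of the family, neighbours within 2 positions and the 3 most similar profiles. From each list the called members were named, otherwise up to 2 of the brightest, with SAG101 added. In the lists for sucrose transporters, sugar sensing and sugar starvation 0 genes had a single-gene probe set in the annotation used. The 13 alternatives were quantile normalization, median centring, pseudocounts of 1 and 64, a filter on dim probe sets, a variance trend, a replicate block and omission of each array.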

Additional observations from a re-analysis of the deposited data

How the results depend on the processing

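The log2 differences of SWEET2, SWEET10, SWEET17 and SAG29 kept their direction and their side of the threshold in all 13 alternatives each, with limma adjusted p of up to 0.0133, 0.0131, 0.0072 and 0.0107. SWEET10 passed the filter on dim probe sets through its wild type arrays alone, at a mean of 16.6. The 12 other SWEET genes were called in none of their alternatives, and 9 of them were removed by that filter. With a pseudocount of 1, 2143 probe sets were called instead of 3751 (1184 higher instead of 1861, and 959 lower instead of 1890), and 2 instead of 5 of the sugar list genes. Of the latter 6 were called with a pseudocount of 64 or a variance trend and 7 with a replicate block. The cause of these shifts was not tested. Without single arrays, which leaves fewer samples, 2181 to 3433 probe sets were called, 1213 to 1741 higher and 968 to 1692 lower, and 2 to 4 of the sugar list genes. The lowest of these counts came without transgenic replicate 3, and the count of probe sets was also more than 1.5 times lower without transgenic replicate 2 (2290) and wild type replicates 2 (2358) and 3 (2323). The sugar list count was 3 without wild type replicate 2 or transgenic replicate 1 or 2. Deviations of arrays with the same replicate number correlated at 0.191, 0.057 and 0.113, and 5 of 6 arrays correlated best with their own number, a hint from the data and not the design, so the numbers were not taken as pairs. A replicate block gave 3592 called probe sets and log2 differences of 0.61, -0.88, 0.73 and 1.11 for SWEET2, SWEET10, SWEET17 and SAG29. Dim signals limit what can be said of SWEET10 and 9 further SWEET genes.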
